A study of Mus musculus with 24 samples.

Results

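Cochlear organoids that had been both depleted of RBM25 by lentiviral knockdown and treated with tumour necrosis factor (TNF) were set against untreated control organoids, to describe the net state after both treatments. The comparison takes in all genes of 6 RNA-sequencing libraries, 3 per group, out of 24 libraries in the series and 12 of organoids. The organoids were grown from cochlear epithelium of wild-type mouse pups, expanded in Matrigel and then differentiated with the GSK3 inhibitor CHIR99021 and the gamma-secretase inhibitor LY411575. The knockdown plus TNF group carried the RBM25 knockdown and received TNF. Knockdown alone and TNF alone, also 3 libraries each, are given beside it where the combined state turns on them, and the control organoids received neither. The labels do not say how much TNF was given or for how long, nor whether control cells carried an empty vector. Sample titles speak of a knockout and the protocol of a knockdown, and the text follows the protocol. Nothing in the labels says that the 3 libraries of a group came from separate cultures, so the p-values measure the spread between these libraries, which may be technical.

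RBM25 is an RNA-binding protein that associates with the U1 snRNP, the particle that recognises 5′ splice sites, and is known for regulating the choice of splice sites. TNF is an inflammatory cytokine that acts through its receptors TNFR1 and TNFR2 to release the transcription factor NF-kB from its inhibitors, which induces chemokines, adhesion molecules and the inhibitors themselves. Interferon signalling, through STAT and IRF factors, drives a partly separate programme of antiviral and antigen presentation genes. In the cochlea, hair cells turn sound into electrical signals, and supporting cells couple the epithelium through gap junctions and secrete the tectorial membrane.

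The libraries held 36208810 to 36565649 counts in the knockdown plus TNF group and 35286989 to 35809827 in controls. Levels are in CPM (read counts scaled to a common library size after TMM adjustment), and differences are log2 fold changes of knockdown plus TNF over control. A gene was called changed at an adjusted p below 0.05 by edgeR's quasi-likelihood test over the 15888 genes tested. Rbm25 itself (chr12:83632208-83683127, mm10) had 103, 122 and 108 CPM in knockdown plus TNF libraries and 142, 148 and 144 CPM in controls. The groups did not overlap, and Rbm25 fell by 0.38 on the log2 scale (SE 0.06, adjusted p = 2.06e-05). The reduction was partial in both depleted groups, at a mean of 111 ± 10 CPM with TNF and 94.6 ± 2.14 CPM without it, against 162 ± 11.6 CPM with TNF alone and 145 ± 2.93 CPM in controls (SD, n = 3 each). Tnf transcript had 1.6, 2.22 and 1.75 CPM in knockdown plus TNF libraries and no count in any control library. That is at least 64-fold higher, against a floor of 3 counts over the control group.

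The epithelial identity of the organoids was visible in both groups. Epcam, an epithelial adhesion molecule, had 737, 697 and 794 CPM after knockdown plus TNF and 913, 946 and 940 CPM in controls. Cdh1, the adherens junction cadherin, had 461, 431 and 515 CPM after knockdown plus TNF and 408, 414 and 417 CPM in controls. Otof, which hair cells need for synaptic release, and Sox2, a factor of the sensory lineage, were also measured in every library. In bulk RNA, fewer cells of a type and less RNA per cell cannot be told apart.

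Of the 15888 genes tested, 60.7% were called changed, 4788 higher (30.1%) and 4849 lower (30.5%), and the median over all genes was -0.011 on the log2 scale. Because most genes were called, counts are also given at 2-fold or more, where 10.7% of all genes were called higher and 6.75% lower. At 4-fold or more, 744 genes were higher (4.68%) and 237 lower (1.49%). Large changes were thus more often increases. The libraries of the 2 groups did not overlap for 67.5% of genes. Counts over gene lists run over the members that passed the filter on low counts. A member below its level (0.276 CPM) in any control library passed through groups where it is higher. Where such members were called against controls, they are counted apart, but 2-fold counts and medians include them.

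The 12 largest increases included immune genes that were at or near 0 in controls. Ubd, a ubiquitin-like protein induced by inflammatory cytokines, had 10.3, 6.87 and 15.3 CPM after knockdown plus TNF and no count in controls, which makes it at least 373-fold higher. Aif1, a calcium-binding protein known from macrophages, had 8.53, 7.68 and 9.62 CPM against no count in controls, at least 297-fold higher. H2-M2, a non-classical MHC class I gene, had 6.95, 6.76 and 6.9 CPM against none, at least 237-fold higher.

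C3, the central protein of complement, had 416, 354 and 448 CPM in knockdown plus TNF libraries and 0.344, 0.231 and 0.0883 CPM in controls (log2 fold change 10.81, SE 0.49, adjusted p = 1.24e-07). Cd74, the invariant chain of MHC class II, had 591, 492 and 676 CPM after both treatments and 0.488, 0.26 and 0.294 CPM in controls (log2 fold change 10.70, SE 0.21). Every control library of both genes was below 0.5 CPM. Madcam1, an endothelial-type adhesion molecule for leukocyte integrins, averaged 50.4 ± 6.62 CPM after knockdown plus TNF, against 3 counts in all in controls, a ratio of 1740 (95% counting interval 595 to 8440). Cxcl10, a chemokine for T cells, had 53.9, 81.8 and 45.6 CPM after knockdown plus TNF and 0.0574, 0 and 0.0883 CPM in controls.

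Rspo1, a secreted enhancer of Wnt signalling, rose to 67.6 ± 8.88 CPM after knockdown plus TNF, against 0.0392 ± 0.068 CPM in controls (SD, n = 3 each). The neuropeptide precursor Nts, the organic anion transporter Slco2b1 and Fsd2 had no counts in controls and were at least 155-fold, 143-fold and 140-fold higher. Ibsp, a bone matrix sialoprotein, headed the ranking at 52.7 and 98 CPM in 2 libraries, but the third knockdown plus TNF library had 0.458 CPM. Its adjusted p was 0.0121, and 0.0773 without control replicate 3, the single control library with a count. Its ratio over that 1 count was 5210 (95% counting interval 934 to 206000). The order among genes at 0 in controls depends on the prior count of the fit.

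Promoter sequences, 250 bases before to 50 bases after the annotated start, were read from RefSeq (GRCm38.p6) for 11 of these 12 genes. The kappaB letters (GGG, any 2 bases, then TTTCC), searched on both strands, were found in 2 of them, Ubd and Madcam1, and the interferon-response letters (GAAA, any 2 bases, then GAAA) in 2 others, Cxcl10 and Aif1. Those 4 are shown because the letters fall in genes that control organoids hardly expressed, with Nfkbia and Ifit3 beside them as members of the NF-kB and interferon lists described next. Capitals mark the matched letters.

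Ubd (chr17:37193642-37193941, plus strand): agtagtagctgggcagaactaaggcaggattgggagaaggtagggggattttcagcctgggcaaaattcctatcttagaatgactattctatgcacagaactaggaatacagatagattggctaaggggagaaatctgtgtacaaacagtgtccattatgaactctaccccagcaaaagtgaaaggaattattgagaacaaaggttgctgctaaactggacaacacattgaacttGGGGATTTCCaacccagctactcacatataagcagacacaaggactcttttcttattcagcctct
Madcam1 (chr10:79664309-79664608, plus strand): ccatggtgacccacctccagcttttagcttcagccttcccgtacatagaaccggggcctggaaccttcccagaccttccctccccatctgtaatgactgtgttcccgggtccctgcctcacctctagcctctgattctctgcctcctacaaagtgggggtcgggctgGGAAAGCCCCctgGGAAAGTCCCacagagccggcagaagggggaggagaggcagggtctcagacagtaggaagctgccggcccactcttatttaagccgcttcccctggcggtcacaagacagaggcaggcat
Nfkbia (chr12:55492598-55492897, minus strand): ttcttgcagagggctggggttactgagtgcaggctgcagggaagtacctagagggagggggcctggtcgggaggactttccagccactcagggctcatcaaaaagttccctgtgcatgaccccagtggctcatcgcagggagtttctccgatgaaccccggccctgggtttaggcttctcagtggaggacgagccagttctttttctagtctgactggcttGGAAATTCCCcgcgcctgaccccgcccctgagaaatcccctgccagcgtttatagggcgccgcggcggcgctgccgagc
Cxcl10 (chr5:92348840-92349139, minus strand): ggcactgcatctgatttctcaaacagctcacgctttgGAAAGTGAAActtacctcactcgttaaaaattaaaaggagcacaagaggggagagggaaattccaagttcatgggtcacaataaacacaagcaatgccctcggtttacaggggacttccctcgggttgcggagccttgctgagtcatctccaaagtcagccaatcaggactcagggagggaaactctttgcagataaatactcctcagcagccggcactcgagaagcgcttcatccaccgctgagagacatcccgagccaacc
Aif1 (chr17:35176003-35176302, minus strand): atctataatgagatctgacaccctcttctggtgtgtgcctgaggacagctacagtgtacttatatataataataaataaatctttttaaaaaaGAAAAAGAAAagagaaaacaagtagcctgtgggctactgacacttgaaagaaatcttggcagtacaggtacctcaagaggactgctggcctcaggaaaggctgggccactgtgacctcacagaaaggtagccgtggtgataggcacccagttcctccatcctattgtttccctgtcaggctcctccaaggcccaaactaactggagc
Ifit3 (chr19:34583279-34583578, plus strand): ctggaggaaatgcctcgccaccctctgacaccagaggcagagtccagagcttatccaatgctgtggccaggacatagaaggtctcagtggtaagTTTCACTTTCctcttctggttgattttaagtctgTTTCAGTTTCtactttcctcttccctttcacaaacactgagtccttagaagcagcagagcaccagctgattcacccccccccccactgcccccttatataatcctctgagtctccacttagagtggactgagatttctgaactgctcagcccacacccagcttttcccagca

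In Ubd the kappaB match began 15 bases before the start, in Madcam1 there were 2, beginning 83 and 70 bases before it, and in Nfkbia 1 began 29 bases before it. The interferon-response match began 213 bases before the start of Cxcl10, 157 bases before that of Aif1, and 156 and 122 bases before that of Ifit3. The kappaB letters were present in 2.11% of the 12395 tested genes with a promoter in the table, in 6.55% of the 550 genes called higher at 4-fold or more and in 2.38% of the 168 called lower at 4-fold or more. The interferon-response letters were present in 3.55%, 8.91% and 4.17% of the same sets, and in 21 of 36 interferon-stimulated genes (58.3%). A match describes the letters in the window only.

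The 12 largest decreases included neuronal, hair cell and ion channel genes. Penk, the enkephalin precursor, had 0.0535, 0.0811 and 0 CPM after knockdown plus TNF and 1.43, 1.18 and 1.21 CPM in controls. Slc26a5, which encodes prestin, the motor protein of outer hair cells, had 0.0535, 0.135 and 0.0539 CPM after knockdown plus TNF and 1.52, 2.17 and 1.68 CPM in controls (log2 fold change -4.41, SE 0.42, adjusted p = 4.01e-08). Hpca, a neuronal calcium sensor, had 0.134, 0.487 and 0.323 CPM after both treatments and 6.83, 6.01 and 6.09 CPM in controls. Each of these genes was separated from controls in all 3 libraries.

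Nat8l, the N-acetylaspartate synthase, averaged 0.753 ± 0.166 CPM after knockdown plus TNF and 13.3 ± 0.981 CPM in controls. The potassium channel gene Kcnc4 averaged 0.807 ± 0.291 CPM after both treatments and 13 ± 1 CPM in controls (SD, n = 3 each). Rasgrf1, Capn3, Tnnt2, P2rx5, Sorcs3, Grhl3 and Ikzf3 completed the 12, with log2 fold changes between -3.99 for Rasgrf1 and -3.31 for Ikzf3. Grhl3 is an epithelial transcription factor and Ikzf3 a zinc finger factor known from lymphocytes.

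The 4 groups placed the 2 sets of genes differently, and the comparisons share libraries, so their levels are given side by side. C3, Cd74 and Ubd were near their combined level with TNF alone, at 304 ± 111, 481 ± 15.9 and 9.4 ± 3.24 CPM, and near 0 with knockdown alone, at 0.284 ± 0.17, 0.414 ± 0.202 and 0.0197 ± 0.0341 CPM (SD, n = 3 each). Cxcl10, Madcam1, Rspo1 and Aif1 were lower with TNF alone than after both treatments, at 11.5 ± 3.08, 12.8 ± 1.99, 23.4 ± 1.23 and 2.01 ± 0.281 CPM, with log2 fold changes of knockdown plus TNF over TNF of 2.40, 1.97, 1.53 and 2.10. The largest adjusted p of these 4 was 9.15e-05. Nts averaged 4.5 ± 0.319 CPM after both treatments, 0.0197 ± 0.0341 CPM with knockdown alone and 0.259 ± 0.176 CPM with TNF alone.

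Among the decreases, Slc26a5, Capn3, P2rx5 and Ikzf3 were already low with knockdown alone, at 0.102 ± 0.0459, 0.239 ± 0.0421, 0.623 ± 0.112 and 0.235 ± 0.0908 CPM. With TNF alone the same genes averaged 1.18 ± 0.109, 2.52 ± 0.873, 4.25 ± 1.34 and 5.22 ± 0.511 CPM (SD, n = 3 each). Hpca and Sorcs3 were low with TNF alone, at 0.334 ± 0.169 and 0.704 ± 0.0613 CPM, and higher with knockdown alone, at 1.94 ± 0.186 and 4.14 ± 0.207 CPM. Nat8l, Penk and Grhl3 were below controls in each single treatment and lowest after both.

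**Figure D1:**
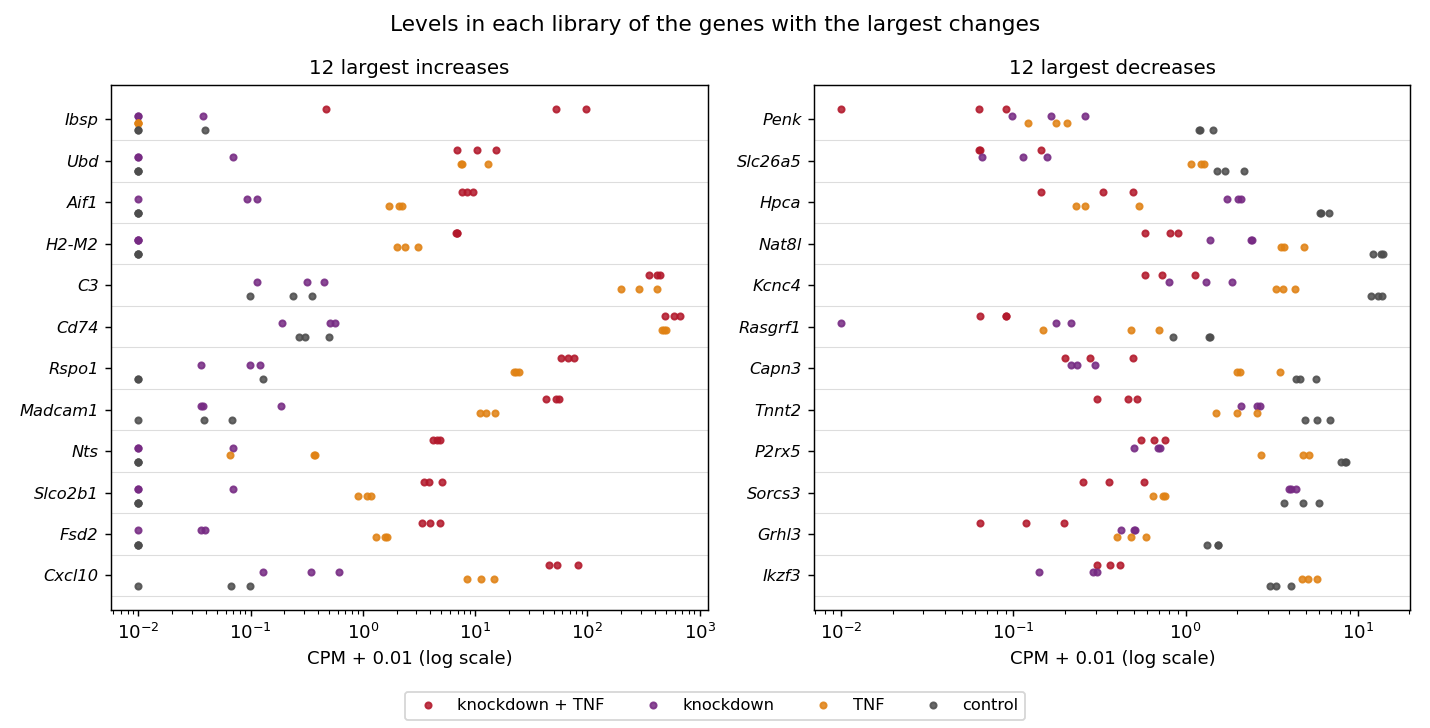
Level of each of the 12 genes with the largest increases (left) and decreases (right) in every organoid library, as CPM plus 0.01 on a log axis, coloured by group. Most increases lie near 0 in control and knockdown libraries, and 1 knockdown plus TNF library of Ibsp, at 0.458 CPM, lies far below the other 2.

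NF-kB signalling genes were mostly higher in the combined state, led by the inhibitors that NF-kB induces. Of 15 NF-kB subunits, inhibitors and kinases tested, 11 were higher and 3 lower, with 7 higher at 2-fold or more and a median log2 fold change of 0.54 (all genes, -0.011). Nfkbia, the inhibitor that NF-kB itself induces, had 564, 565 and 542 CPM after knockdown plus TNF and 35.7, 37.1 and 34.9 CPM in controls (log2 fold change 3.96, SE 0.05, adjusted p = 3.07e-20). Nfkbie, a related inhibitor, averaged 86 ± 2.42 CPM after both treatments and 4.76 ± 0.711 CPM in controls, and the subunit genes Relb and Nfkb2 had log2 fold changes of 3.00 and 1.88. The 3 lower genes were the kinase complex genes Chuk, Ikbkb and Ikbkg, which fell by 0.24, 0.13 and 0.15. Their count was 1 without knockdown plus TNF replicate 2 or 3, or without control replicate 1.

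Of 26 genes of TNF receptor signalling, 16 were higher and 7 lower, or 15 and 7 of the 25 at the filter level in all controls. At 2-fold or more 9 were higher and 1 lower. The feedback inhibitors led the list. Tnfaip3, a ubiquitin-editing enzyme that restrains NF-kB, had 176, 164 and 168 CPM after knockdown plus TNF and 5.94, 5.89 and 7.74 CPM in controls. Birc3, an inhibitor of TNF-induced death, averaged 107 ± 4.96 CPM after both treatments and 8.13 ± 0.342 CPM in controls, and Tnip1, a partner of Tnfaip3, averaged 271 ± 5.43 CPM after both treatments and 33 ± 0.857 CPM in controls (SD, n = 3 each). Of the receptors, Tnfrsf1b was higher (log2 fold change 1.54, SE 0.15), and Tnfrsf1a was not called (log2 fold change -0.11, adjusted p = 0.146). Traf1 was the member lower by 2-fold or more, at 3.7 ± 0.331 CPM after knockdown plus TNF and 9.76 ± 0.574 CPM in controls.

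Against TNF alone, 52.3% of all genes were called, 25.4% higher and 26.9% lower after knockdown plus TNF. In this comparison 3 of the 15 NF-kB genes were higher and 8 lower, with a median log2 fold change of -0.15. Nfkbia was slightly below its level with TNF alone, at 557 ± 12.8 CPM with both treatments against 619 ± 6.15 CPM with TNF alone (SD, n = 3 each, log2 fold change -0.15, adjusted p = 0.00645). Birc3 did not pass the threshold, at 107 ± 4.96 CPM with both treatments and 118 ± 3.93 CPM with TNF alone (adjusted p = 0.0537).

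Several chemokine and cytokine genes were higher than in controls. Of 14 CXC and CX3C chemokines 9 were tested and 8 were higher, but 5 of these 8 were below the filter level in controls, which leaves 3 of 4. Of 17 CC chemokines 7 were tested and 5 were higher, 4 of them below the filter level in controls, and 1, Ccl25, was lower, a call that ended without control replicate 2. Cxcl9, a T-cell chemokine known as a target of interferon gamma, had 3.37, 3.95 and 2.51 CPM after knockdown plus TNF, averaged 0.00867 ± 0.015 CPM with knockdown alone and 0.0092 ± 0.0159 CPM with TNF alone, and had no count in controls. It was thus measured above 0.05 CPM only in the libraries that had both treatments. Ccl2, a monocyte chemokine, had 64.2, 73.4 and 55.7 CPM after knockdown plus TNF and 0.258, 0.837 and 1.15 CPM in controls.

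Ccl5 averaged 5 ± 2.1 CPM after knockdown plus TNF, 1.16 ± 0.418 CPM with TNF alone and 0.039 ± 0.045 CPM in controls (SD, n = 3 each). Cx3cl1, a membrane-bound chemokine, was lower after both treatments than with TNF alone (log2 fold change -0.45, adjusted p = 0.000344), at 115 ± 7.47 CPM after knockdown plus TNF and 157 ± 16 CPM with TNF alone, against 17.4 ± 0.978 CPM in controls. Of 34 cytokine genes 13 were tested, and 9 were higher, 8 of them at the filter level in all controls, and 1 lower. Csf1, the macrophage growth factor, had 241, 217 and 235 CPM after knockdown plus TNF and 6.83, 7.57 and 7.09 CPM in controls (log2 fold change 5.01, SE 0.21). Il33, an alarmin, averaged 149 ± 5.63 CPM after both treatments, 126 ± 4.37 CPM with knockdown alone, 45.9 ± 3.02 CPM with TNF alone and 75.7 ± 3.49 CPM in controls.

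Complement and acute-phase genes included further increases. Of 24 complement genes 18 were tested, and 14 were higher and 2 lower, or 9 and 2 of the 12 that reached the filter level in all controls. Of 23 acute-phase and inflammatory effector genes 15 were tested and 13 were higher, 10 of them below the filter level in controls, which leaves 3 of 5. C1s1, a protease of the classical pathway, had 80.2, 92.5 and 75.1 CPM after knockdown plus TNF and 2.15, 2.54 and 2.8 CPM in controls. Its partner C1ra averaged 43.7 ± 5.55 CPM after both treatments and 2.22 ± 0.368 CPM in controls (SD, n = 3 each). Clu, an extracellular chaperone that inhibits complement, was the exception at 679 ± 143 CPM after knockdown plus TNF and 3460 ± 58 CPM in controls. The other lower member, Cfp, left a count of 1 lower gene without knockdown plus TNF replicate 2.

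Lcn2, an iron-sequestering acute-phase protein, had 172, 107 and 268 CPM after knockdown plus TNF and 1.2, 1.01 and 1.12 CPM in controls. Ptges, which makes prostaglandin E2, averaged 17.1 ± 0.534 CPM after both treatments and 7.85 ± 0.61 CPM in controls. Icam1, an adhesion molecule for leukocytes, had 147, 145 and 150 CPM after knockdown plus TNF and 2.38, 1.85 and 1.56 CPM in controls (log2 fold change 6.25, SE 0.17). Of 14 leukocyte adhesion genes 11 were tested, and 6 were higher and 2 lower, or 4 and 2 of the 9 at the filter level in all controls.

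Most interferon-stimulated genes were higher after both treatments than in controls or with TNF alone. Of 46 tested, 43 were higher than in controls and 2 lower, 39 of the higher ones at 2-fold or more, and the median log2 fold change was 3.08. Of the 32 that reached the filter level in all controls, 29 were higher and 2 lower. The 2-fold count and the median also include the other 14, all called higher, which passed through groups where they are higher. Oasl2 was not called, and the lower genes, Trim25 and Iigp1, fell by 0.36 and 0.25. Ifit3, an RNA-binding antiviral protein, had 27.7, 26.3 and 25.6 CPM after knockdown plus TNF and 0.086, 0.491 and 0.177 CPM in controls (log2 fold change 6.70, SE 0.25, adjusted p = 1.86e-13). Rtp4, an interferon-induced chaperone, had 76.6, 80.4 and 79.6 CPM after both treatments and 2.93, 2.57 and 2.56 CPM in controls. Gbp6, a guanylate-binding GTPase, averaged 70.7 ± 6.35 CPM after both treatments and 9.21 ± 0.284 CPM in controls, and Parp9 averaged 47.8 ± 1.81 CPM after both treatments and 12.3 ± 0.821 CPM in controls (SD, n = 3 each).

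Against TNF alone, 41 of the 46 interferon-stimulated genes were higher after knockdown plus TNF and 2 lower, with a median log2 fold change of 1.39 (all genes, -0.009). TNF alone over control called 35 higher and 2 lower with a median of 1.38, beside 47.5% of all genes called, 23.3% higher and 24.2% lower. Knockdown alone over control called 6 higher and 16 lower with a median of -0.28, beside 52.6% of all genes called, 24.4% higher and 28.2% lower. The difference of differences asks whether TNF raised a gene more, or lowered it less, in depleted than in other organoids. It was positive and called for 32 of the 46 and negative and called for none. Over all genes 12.3% were called, 7.54% positive and 4.81% negative. The 46 include 14 below the filter level in controls, which passed through groups where they are higher. They were not counted apart in these comparisons.

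Ifit3 was at 0.102 ± 0.0214 CPM with knockdown alone and 1.24 ± 0.17 CPM with TNF alone (SD, n = 3 each), and its difference of differences was 5.69 on the log2 scale (adjusted p = 6.1e-06). Isg15, a ubiquitin-like interferon product, averaged 17.7 ± 3.33 CPM after both treatments, 0.0382 ± 0.0332 CPM with knockdown alone, 0.627 ± 0.748 CPM with TNF alone and 0.0382 ± 0.0662 CPM in controls. Irf7, the factor that amplifies type I interferon, averaged 36.3 ± 7.23 CPM after both treatments, 0.321 ± 0.12 CPM with knockdown alone, 1.67 ± 1.23 CPM with TNF alone and 0.639 ± 0.112 CPM in controls. In the 9 libraries without both treatments the highest levels were 1.43 CPM for Ifit3, 1.49 CPM for Isg15 and 3.09 CPM for Irf7. Copies of a family such as Ifit3 and Ifit3b, or the Gbp and Oas genes, are near-identical in parts, and the labels do not say how reads that match several of them were counted.

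The regulators of the pathway moved less uniformly. Of 23 IRF, STAT, SOCS and interferon receptor genes 11 were higher and 8 lower, with a median log2 fold change of 0.09. Irf1 averaged 55.4 ± 0.414 CPM after both treatments and 48.1 ± 1.46 CPM with TNF alone, against 5.76 ± 0.632 CPM in controls (SD, n = 3 each). Its difference from TNF alone did not pass the threshold (adjusted p = 0.0992). Stat5b and Stat6 had log2 fold changes of -0.89 and -0.94.

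Antigen presentation genes included both MHC class I heavy chains and their partners. Of 17 MHC class I genes 9 were tested, and 7 were higher and 2 lower, or 5 and 2 of the 7 at the filter level in all controls, and the lower count was 1 without knockdown plus TNF replicate 2. Of 14 peptide-loading and immunoproteasome genes 11 were higher and none lower, with 8 higher of the 11 at the filter level in all controls. H2-D1 had 613, 604 and 614 CPM after knockdown plus TNF and 61.9, 60.6 and 64.6 CPM in controls. H2-K1 averaged 761 ± 3.41 CPM after both treatments and 110 ± 1.64 CPM in controls, and B2m, the light chain they share, 590 ± 40.8 CPM after both treatments and 89.8 ± 3.79 CPM in controls (SD, n = 3 each). The class I genes are close copies of each other, so reads may be split between them.

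Psmb8, a catalytic subunit of the immunoproteasome, had 20.3, 23 and 22.2 CPM after knockdown plus TNF, 10.4 ± 1.85 CPM with TNF alone and 0.229, 0.318 and 0.471 CPM in controls. Cd74 was accompanied by MHC class II genes that stand in no list and were looked up after its value was seen. H2-Aa had 55.7, 42.8 and 63.7 CPM after knockdown plus TNF and 0.287, 0.318 and 0.235 CPM in controls, and Ciita, the class II transactivator, averaged 5.25 ± 1.62 CPM after both treatments and 0.28 ± 0.0439 CPM in controls. With TNF alone H2-Aa and Ciita averaged 50 ± 8.81 and 4.93 ± 0.801 CPM.

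**Figure D2:**
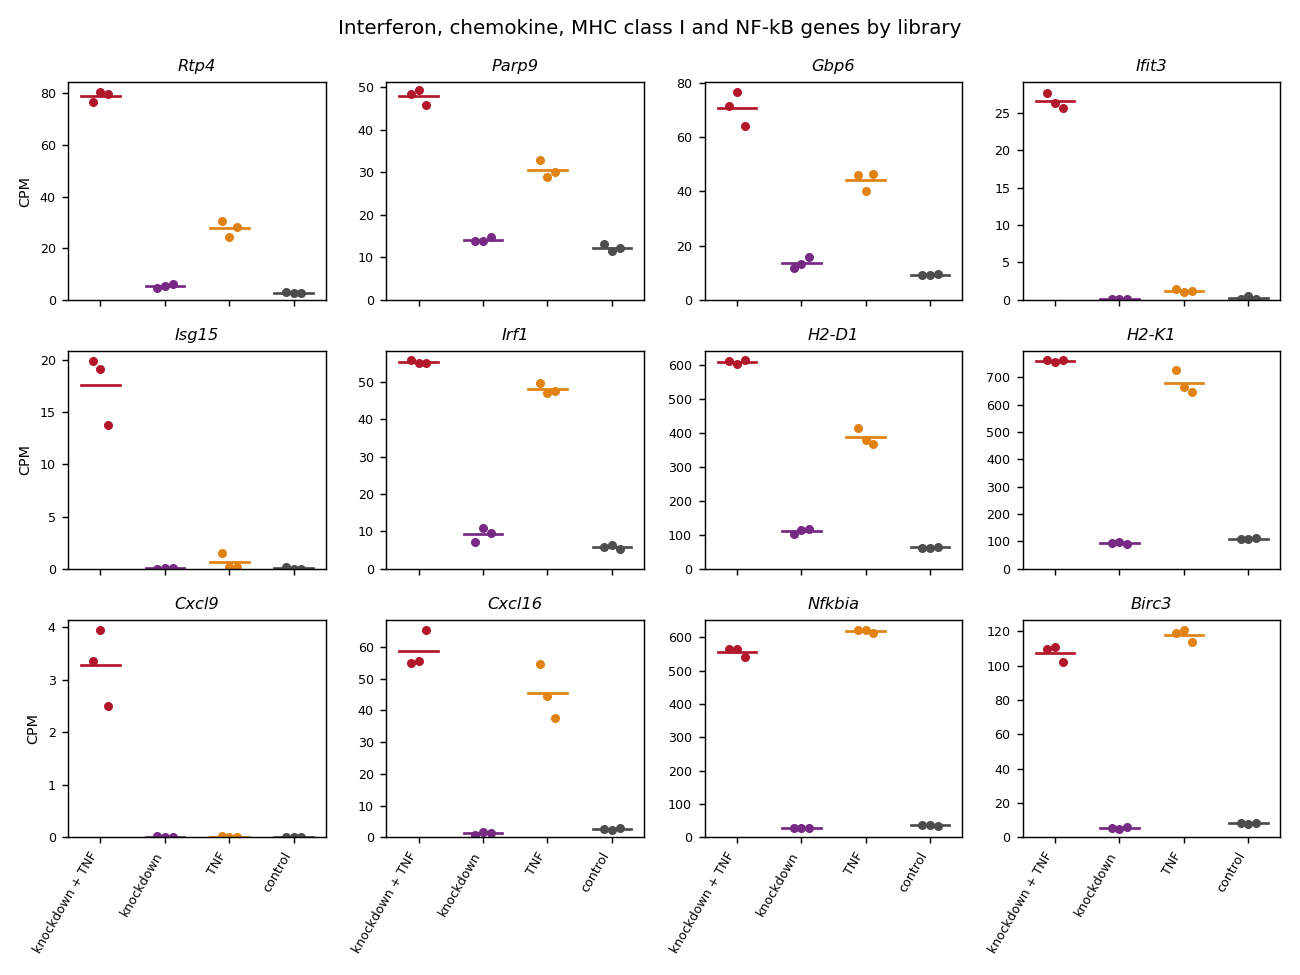
Level of 12 interferon, chemokine, MHC class I and NF-kB genes in each library (points, CPM on linear axes from 0) with the group mean (line), for knockdown plus TNF, knockdown, TNF and control. Ifit3 and Cxcl9 are high in the knockdown plus TNF libraries alone, at 25.6 to 27.7 and 2.51 to 3.95 CPM, whereas Nfkbia and Birc3 are high in both TNF groups.

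Markers of leukocytes were checked because several of these genes are also macrophage markers. Of 19 macrophage markers 14 were in the table and 5 passed the filter on low counts. Of these Cd74, Aif1, Mpeg1 and Cd14 were higher, and all 4 were below the filter level in controls. The summed level of the 14 was 503 to 691 CPM after knockdown plus TNF, where nearly all of it was Cd74, and 2.21 to 2.43 CPM in controls, where Cd74 was 0.26 to 0.488 CPM. Among the 9 markers below the filter, Csf1r had 1, 0 and 0 counts after knockdown plus TNF and 0 in each control, Ptprc had none after knockdown plus TNF and 0, 0 and 1 in controls, and Itgam had none after knockdown plus TNF and 4, 0 and 0 in controls. Mrc1 had 15, 9 and 7 counts after knockdown plus TNF and 1, 1 and 3 in controls, Laptm5 had 9, 0 and 4 after knockdown plus TNF and 2, 2 and 0 in controls, and Trem2 had 1, 2 and 0 after knockdown plus TNF and none in controls. C1qb had 8, 1 and 4 counts after knockdown plus TNF and 1, 1 and 4 in controls, Fcer1g had 4, 5 and 6 after knockdown plus TNF and 3, 12 and 3 in controls, and Lyz2 had 0, 6 and 0 after knockdown plus TNF and 7, 1 and 4 in controls. These counts are too few for a test, and the part of such cells in the immune gene increases was not tested. Cd68, a lysosomal protein that is not restricted to macrophages, was not called.

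Collagen genes were more often higher than lower in both knockdown groups. Of 30 collagen genes 16 were higher and 4 lower than in controls, with a median log2 fold change of 1.10, and the median was 1.26 with knockdown alone and -0.28 with TNF alone. Col4a5, a basement membrane collagen, had 343, 361 and 342 CPM after knockdown plus TNF and 143, 132 and 136 CPM in controls, and averaged 323 ± 13.9 CPM with knockdown alone and 121 ± 3.44 CPM with TNF alone (SD, n = 3 each). Col11a1, a fibrillar collagen of cartilage and of the tectorial membrane, averaged 871 ± 25.1 CPM after both treatments and 507 ± 10.3 CPM in controls. Col1a1 was variable, at 133, 158 and 61.9 CPM after knockdown plus TNF and 16.4, 15.1 and 17.2 CPM in controls (adjusted p = 0.0441).

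Of 21 matrix metalloproteinase, ADAMTS and inhibitor genes tested 14 were higher and 3 lower, or 11 and 3 of the 18 at the filter level in all controls. Mmp9, a gelatinase induced by NF-kB, had 19.8, 23.2 and 15.8 CPM after knockdown plus TNF and 0.0287, 0.0578 and 0.118 CPM in controls, and averaged 0.257 ± 0.182 CPM with knockdown alone and 10.8 ± 4.69 CPM with TNF alone. Timp3, a metalloproteinase inhibitor, averaged 255 ± 19.8 CPM after both treatments, 183 ± 17.4 CPM with knockdown alone, 126 ± 10.1 CPM with TNF alone and 74.9 ± 5.04 CPM in controls. Growth factor genes were mixed, with 17 of 33 higher and 7 lower, or 16 and 7 of the 31 at the filter level in all controls. Bmp2 averaged 11.2 ± 1 CPM after knockdown plus TNF and 1.59 ± 0.285 CPM in controls, and Igfbp2, an IGF-binding protein, 2670 ± 16.4 CPM after both treatments and 210 ± 3.99 CPM in controls, with 2310 ± 438 CPM after knockdown alone and 216 ± 102 CPM after TNF alone. Tgfb2 and Egfr were lower, with log2 fold changes of -0.80 and -0.62.

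Mesenchymal markers moved in both directions. Of 18 tested, 11 were higher and 3 lower, or 9 and 3 of the 16 at the filter level in all controls. The summed level of the list was 1460 to 1700 CPM after knockdown plus TNF and 1690 to 1720 CPM in controls. Twist2, the member below the filter, had 37, 47 and 9 counts after knockdown plus TNF and 6, 1 and 1 in controls. Vim, an intermediate filament protein, had 608, 584 and 675 CPM after knockdown plus TNF and 78.8, 83.5 and 88.2 CPM in controls, whereas the proteoglycan genes Lum and Dcn fell by 1.84 and 1.28. Endothelial markers summed to 34.8 to 49.4 CPM after knockdown plus TNF and 17.7 to 20.6 CPM in controls. Of 7 tested 5 were higher and 1 lower, with 3 higher without knockdown plus TNF replicate 2 and 2 without control replicate 1. The 6 markers below the filter had at most 7 counts in any of these 6 libraries, with none for Cldn5 and Erg, and 2 of the 5 higher ones were below the filter level in controls. The 1 lower call ended without any of 4 single libraries (knockdown plus TNF replicate 1 or 3, control replicate 1 or 3). The part of these cells in the matrix changes was not tested.

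Hair cell genes moved both ways, with more members higher. Of 40 genes of hair bundle, synapse and channels 20 were higher and 9 lower (all genes, 30.1% and 30.5%). At 2-fold or more 11 were higher and 3 lower (all genes, 10.7% and 6.75%), and the median log2 fold change was 0.53. Cib2, a subunit of the mechanotransduction complex, had 48.1, 50.6 and 43.9 CPM after knockdown plus TNF and 13.4, 12.4 and 13.4 CPM in controls (log2 fold change 1.86, SE 0.09, adjusted p = 3.63e-12). Grxcr2, which is needed for stereocilia, averaged 6.42 ± 0.846 CPM after both treatments and 1.52 ± 0.169 CPM in controls, and the calcium buffer Calb2 35.5 ± 4.29 CPM after both treatments and 10.1 ± 0.666 CPM in controls (SD, n = 3 each). Otof, needed for transmitter release at the hair cell synapse, averaged 134 ± 16.1 CPM after both treatments and 77.7 ± 5.98 CPM in controls.

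In the other direction, Ush1c, the bundle scaffold protein harmonin, had 228, 230 and 212 CPM after knockdown plus TNF and 626, 618 and 636 CPM in controls. Pcdh15, a component of the tip link, averaged 35.6 ± 1.92 CPM after both treatments and 65.2 ± 1.05 CPM in controls. Prestin, described among the largest decreases, belongs to the same group. Tmc1, the transduction channel subunit, was not called, at 16 ± 4.86 CPM after knockdown plus TNF and 12.3 ± 0.689 CPM in controls (adjusted p = 0.162).

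The median log2 fold change over control was 1.13 with knockdown alone, where 26 genes were higher and 7 lower (all genes, 24.4% and 28.2%). It was -0.16 with TNF alone, where 2 were higher and 7 lower (all genes, 23.3% and 24.2%). Calb2 averaged 43.8 ± 9.28 CPM with knockdown alone and 10.9 ± 0.405 CPM with TNF alone, and Cib2 43.5 ± 6.09 and 13.9 ± 0.607 CPM. Ush1c was below controls in each, at 380 ± 28.2 CPM with knockdown alone and 317 ± 8.44 CPM with TNF alone (SD, n = 3 each).

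Of 13 hair cell fate factors 4 were higher and 5 lower, near the shares over all genes (30.1% higher and 30.5% lower). The higher ones were Gfi1, Nhlh1, Lhx3 and Pou4f3, with log2 fold changes from 0.85 for Pou4f3 to 1.22 for Gfi1. Atoh1, the factor that starts hair cell differentiation, was not called, at 3.24, 3.65 and 3.23 CPM after knockdown plus TNF and 3.33, 3.47 and 3.47 CPM in controls (adjusted p = 0.94). Ikzf2, a factor of outer hair cells, averaged 35.1 ± 2.79 CPM after both treatments and 50.5 ± 1.42 CPM in controls (SD, n = 3 each), a change below 1.5-fold.

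Supporting cell genes moved both ways, with more members lower. Of 27 supporting cell and epithelial genes 8 were higher and 12 lower (all genes, 30.1% and 30.5%). At 2-fold or more 3 were higher and 6 lower (all genes, 10.7% and 6.75%). S100b, a calcium-binding protein of supporting cells and glia, had 2.94, 3.95 and 3.91 CPM after knockdown plus TNF and 22.6, 23.4 and 25.9 CPM in controls. Gjb2, the gap junction protein connexin 26, had 251, 240 and 266 CPM after both treatments and 586, 582 and 602 CPM in controls, and averaged 185 ± 16.9 CPM with knockdown alone and 604 ± 80.4 CPM with TNF alone. Lgr5, a marker of supporting cells with progenitor capacity, averaged 10.4 ± 0.709 CPM after knockdown plus TNF and 35.6 ± 2.33 CPM in controls. Slc1a3, the glutamate transporter GLAST of supporting cells, was higher (log2 fold change 0.96, SE 0.06).

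Genes of the tectorial membrane and its attachment moved both ways. Otoa, which encodes otoancorin, had 1570, 1540 and 1500 CPM after knockdown plus TNF and 5420, 5370 and 5480 CPM in controls (log2 fold change -1.82, SE 0.06, adjusted p = 3.64e-14). Otog, which encodes otogelin, had 1460, 1350 and 1310 CPM after both treatments and 5280, 5070 and 5330 CPM in controls (log2 fold change -1.92, SE 0.07). For Otoa and Otog, means with either treatment alone lay between those of controls and of knockdown plus TNF. Otoa averaged 3280 ± 237 CPM with knockdown and 2260 ± 168 CPM with TNF. Otog averaged 2650 ± 144 CPM with knockdown and 1570 ± 180 CPM with TNF (SD, n = 3 each). With TNF alone Otog was thus near its level after both treatments. In all, 5 of 12 genes of tectorial and otolith matrices were lower, each at 2-fold or more, and 3, Tecta, Oc90 and Emilin2, were higher. Tecta, the tectorin gene that encodes alpha-tectorin, had 1460, 1330 and 1500 CPM after knockdown plus TNF and 995, 957 and 1020 CPM in controls (log2 fold change 0.53, SE 0.09), and averaged 3050 ± 226 CPM with knockdown alone and 704 ± 103 CPM with TNF alone. Oc90, an otoconial matrix protein, averaged 17.4 ± 1.27 CPM after knockdown plus TNF and 3.85 ± 0.0812 CPM in controls. Tectb, the other tectorin gene, varied widely and was not called.

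**Figure D3:**
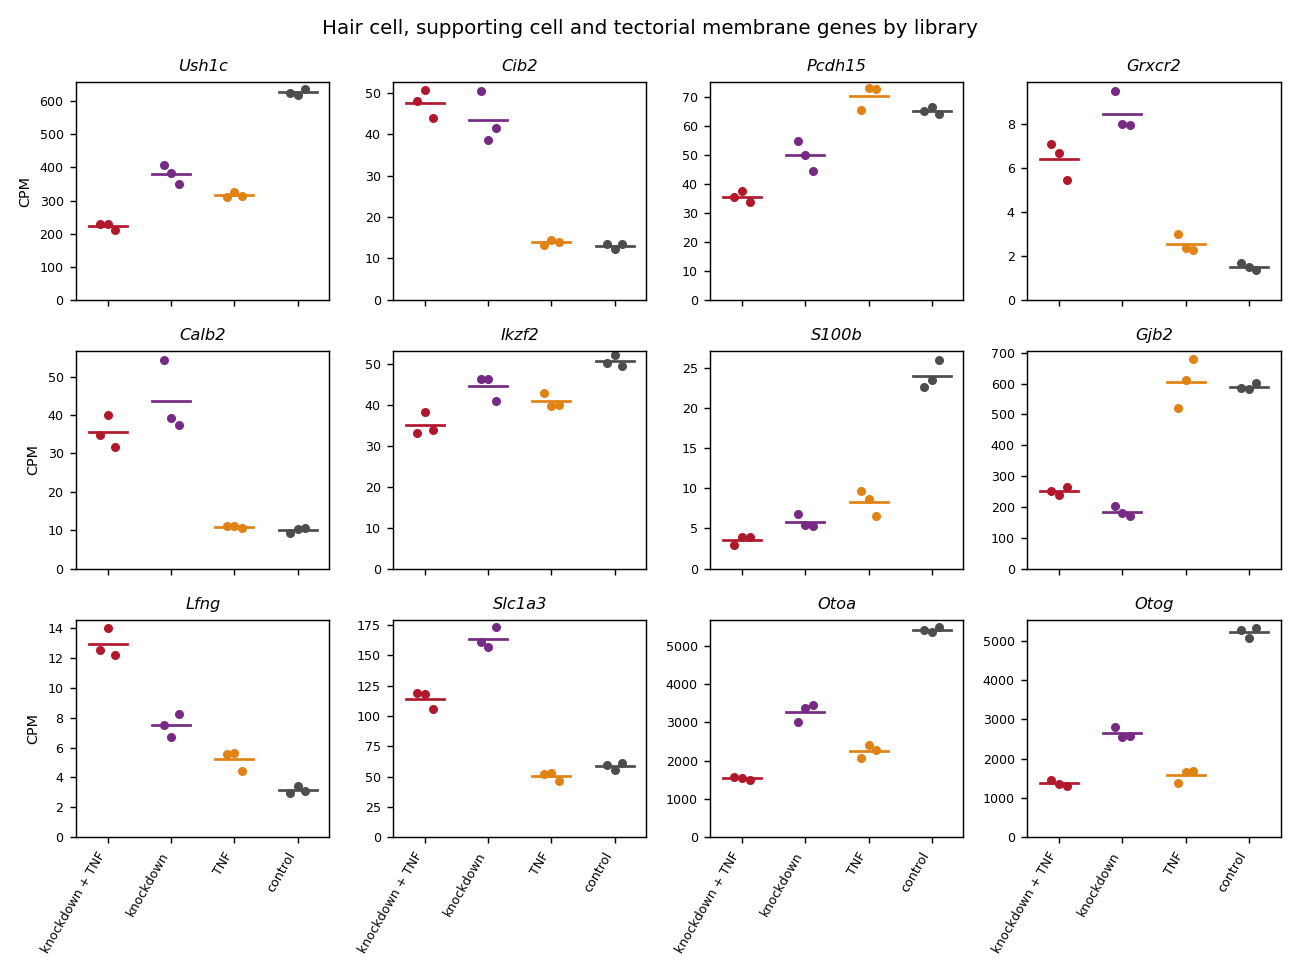
Level of 12 hair cell, supporting cell and tectorial membrane genes in each library (points, CPM on linear axes from 0) with the group mean (line), for knockdown plus TNF, knockdown, TNF and control. Cib2 and Grxcr2 are high in both knockdown groups, while Otoa and Otog have their lowest means after both treatments, with libraries at 1500 to 1570 and 1310 to 1460 CPM.

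Notch and Wnt signalling set the balance of hair cells and supporting cells. Of 26 Notch genes 7 were higher and 9 lower, near the shares over all genes. Lfng, which modifies Notch receptors, averaged 12.9 ± 0.933 CPM after knockdown plus TNF and 3.15 ± 0.261 CPM in controls, and the Notch target Hes1 1.18 ± 0.123 CPM after both treatments and 5.06 ± 0.166 CPM in controls (SD, n = 3 each). All groups were differentiated with a gamma-secretase inhibitor, which blocks Notch cleavage. Of 33 Wnt genes more were higher, with 18 higher and 8 lower, or 15 and 8 of the 30 at the filter level in all controls. Beside Rspo1, Wnt4 had 7.92, 6.14 and 8.54 CPM after knockdown plus TNF and 0.229, 0.318 and 0.118 CPM in controls, and Myc, a Wnt and growth factor target, averaged 13.7 ± 1.16 CPM after both treatments and 3.05 ± 0.453 CPM in controls. Wnt7a was lower, at 69.3 ± 3 CPM after both treatments and 134 ± 2.25 CPM in controls.

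Cell cycle genes were mostly higher. Of 42 tested 35 were higher and 2 lower, 20 and 1 at 2-fold or more, and 24 and 2 of the 31 at the filter level in all controls. Mki67, a marker of cycling cells, had 3.61, 4.35 and 4.34 CPM after knockdown plus TNF and 0.401, 0.722 and 0.324 CPM in controls. Top2a, the topoisomerase of dividing cells, averaged 5.44 ± 0.638 CPM after both treatments, 5.66 ± 1.23 CPM with knockdown alone, 1.9 ± 0.624 CPM with TNF alone and 0.696 ± 0.208 CPM in controls (SD, n = 3 each). Ccnd2, a D-type cyclin, was one of the 2 lower genes, at 21.3 ± 1.69 CPM after knockdown plus TNF and 57.2 ± 2.5 CPM in controls.

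Genes of p53 signalling and cell death were more often higher than lower. Of 25 p53 target and CDK inhibitor genes 16 were higher and 5 lower. Cdkn1a, the CDK inhibitor p21, had 160, 162 and 163 CPM after knockdown plus TNF and 43.3, 44 and 43.4 CPM in controls, with 59.5 ± 4.12 CPM after knockdown alone and 80.4 ± 9.05 CPM after TNF alone. Of 23 BCL2 family and caspase genes 13 were higher and 5 lower, or 11 and 5 of the 21 at the filter level in all controls. The pro-apoptotic Bax averaged 94.5 ± 3.8 CPM after both treatments and 47.8 ± 1.43 CPM in controls, and Bbc3, the BH3-only protein PUMA, 11.2 ± 0.947 CPM after both treatments and 2.22 ± 0.188 CPM in controls. Bmf, also BH3-only, was lower at 9.23 ± 1.06 CPM after both treatments and 29.3 ± 1.88 CPM in controls (SD, n = 3 each).

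Of 20 necroptosis and pyroptosis genes 11 were tested and 8 were higher, but 6 of these 8 were below the filter level in controls, which leaves 2 of 5. Zbp1, a nucleic acid sensor that starts necroptosis and is itself induced by interferon, had 6.39, 8.38 and 4.9 CPM after knockdown plus TNF, 0.0191 ± 0.0166 CPM with knockdown alone, 0.563 ± 0.413 CPM with TNF alone and 0.0574, 0 and 0 CPM in controls. Mlkl, the executor of necroptosis, averaged 2.03 ± 0.583 CPM after both treatments and 0.0773 ± 0.044 CPM in controls. Gsdmd, the pore protein of pyroptosis, averaged 9.14 ± 1.09 CPM after both treatments and 1.54 ± 0.0741 CPM in controls. These are transcript levels, and cell death was not measured.

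**Figure D4:**
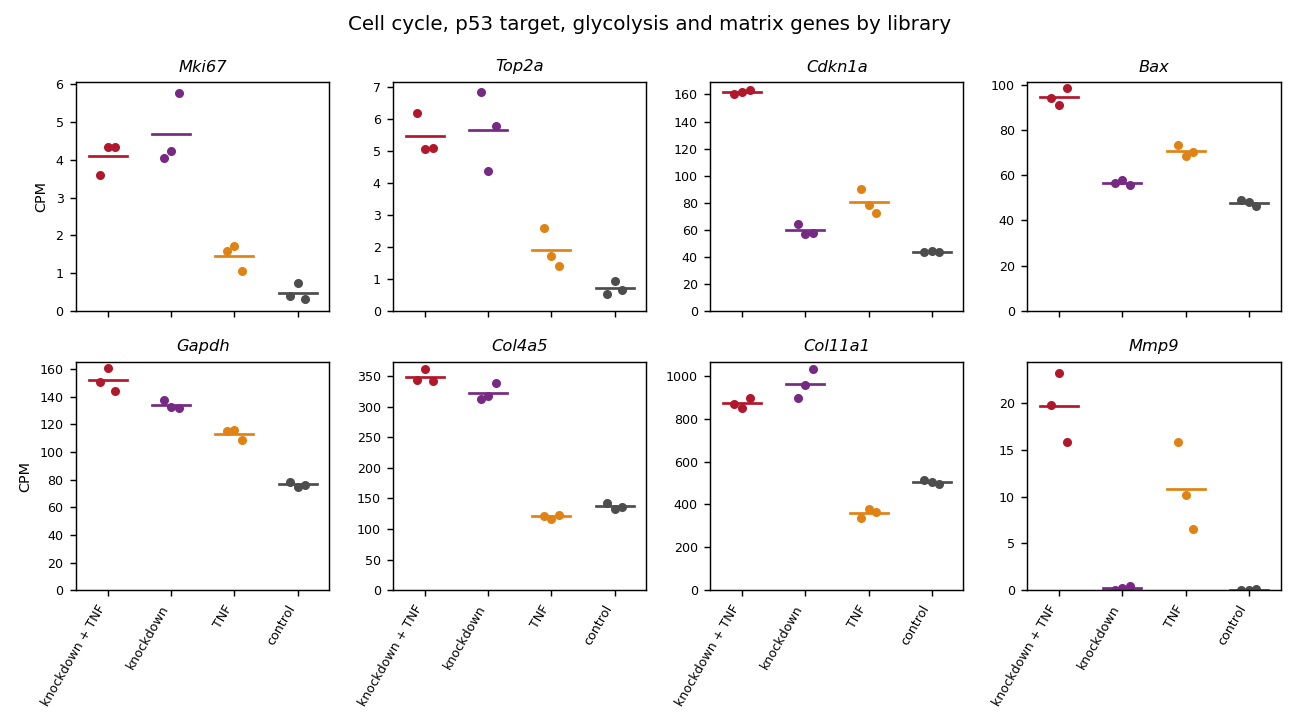
Level of 8 cell cycle, p53 target, glycolysis and matrix genes in each library (points, CPM on linear axes from 0) with the group mean (line), for knockdown plus TNF, knockdown, TNF and control. Cdkn1a and Bax are highest after both treatments, Mki67, Top2a and the collagens are high in both knockdown groups, and Mmp9 is high in both TNF groups.

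Most genes of energy metabolism and translation were higher. Of 30 glycolysis and hypoxia genes 27 were higher and 3 lower, or 26 and 3 of the 29 at the filter level in all controls. At 2-fold or more 17 were higher, and the median log2 fold change was 1.10. Pfkl, the liver phosphofructokinase, had 338, 364 and 297 CPM after knockdown plus TNF and 106, 98.6 and 105 CPM in controls, and Gapdh averaged 152 ± 8.53 CPM after both treatments and 76.6 ± 1.95 CPM in controls. The median of the list was also 1.10 with knockdown alone and 0.32 with TNF alone.

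Of 54 nuclear genes of oxidative phosphorylation 53 were higher and 1, Sdha, was lower, with a median of 0.42. Atp5b, the catalytic ATP synthase subunit, averaged 872 ± 23.7 CPM after knockdown plus TNF and 559 ± 8.33 CPM in controls (SD, n = 3 each). The lower call ended without knockdown plus TNF replicate 1 or 2 or control replicate 3. Of 72 ribosomal protein genes 71 were higher and none lower, with a median of 0.39, beside medians of 0.50 with TNF alone and -0.05 with knockdown alone. At a minimum fold of 1.5 only 5 and 1 genes of these 2 lists were still called higher. Mitochondrially encoded genes did not move with the nuclear ones, with 2 of 13 higher and 1 lower, and 0 to 3 higher and 1 to 2 lower when single libraries were left out.

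Of 30 genes of sterol and fatty acid synthesis 19 were higher and 4 lower, with 2 lower without knockdown plus TNF replicate 2 or control replicate 3. Elovl6, a fatty acid elongase, averaged 90.7 ± 5.36 CPM after knockdown plus TNF and 27.7 ± 0.883 CPM in controls. Of 30 antioxidant genes 17 were higher and 6 lower. Sod3, the extracellular superoxide dismutase, stood apart between the single treatments, at 141 ± 11.4 CPM after both, 344 ± 36.9 CPM with knockdown alone, 7.98 ± 1.08 CPM with TNF alone and 43.3 ± 1.59 CPM in controls (SD, n = 3 each). The mitochondrial Sod2 was not called (adjusted p = 0.0596).

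Stress genes were mixed. Of 28 genes of the unfolded protein and integrated stress responses 8 were higher and 13 lower, and Herpud1, a component of endoplasmic reticulum degradation, fell to 42.2 ± 2.77 CPM after knockdown plus TNF, against 91.3 ± 0.855 CPM in controls. Of 21 heat shock genes 9 were higher and 7 lower, and the small heat shock protein Hspb1 averaged 5.12 ± 0.621 CPM after both treatments and 32 ± 2.44 CPM in controls. Of 23 immediate-early genes 12 were higher and 5 lower, and 16 had a positive called difference of differences (all genes, 7.54%). TNF alone over control called 5 of them higher and 13 lower (all genes, 23.3% and 24.2%), with a median log2 fold change of -0.55. Knockdown alone over control called 7 higher and 4 lower (all genes, 24.4% and 28.2%), with a median of 0.02. Knockdown plus TNF over knockdown alone had a median of 0.46 (all genes, -0.013). Junb, an AP-1 subunit, averaged 440 ± 10.4 CPM after both treatments, 224 ± 18.1 CPM with knockdown alone, 295 ± 23.5 CPM with TNF alone and 230 ± 7.68 CPM in controls.

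Splicing genes changed little in size. Of 16 U1 snRNP and RBM25 partner genes, a list that includes Rbm25 itself, 4 were higher and 11 lower, none at 2-fold or more. Rbm25, the target of the knockdown, is among the 11 lower, and the median log2 fold change of the list was -0.15. Luc7l2, a U1-associated splicing factor, had 236, 271 and 230 CPM after knockdown plus TNF and 415, 400 and 375 CPM in controls (log2 fold change -0.69, SE 0.06, adjusted p = 1.33e-08). Of 43 SR and hnRNP genes and their kinases 14 were higher and 9 lower, none at 2-fold or more. The kinase genes Clk1 and Clk4 fell by 0.44 and 0.42, and Hnrnpab had a log2 fold change of 0.60. Gene counts do not show which splice forms were made.

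**Figure D5:**
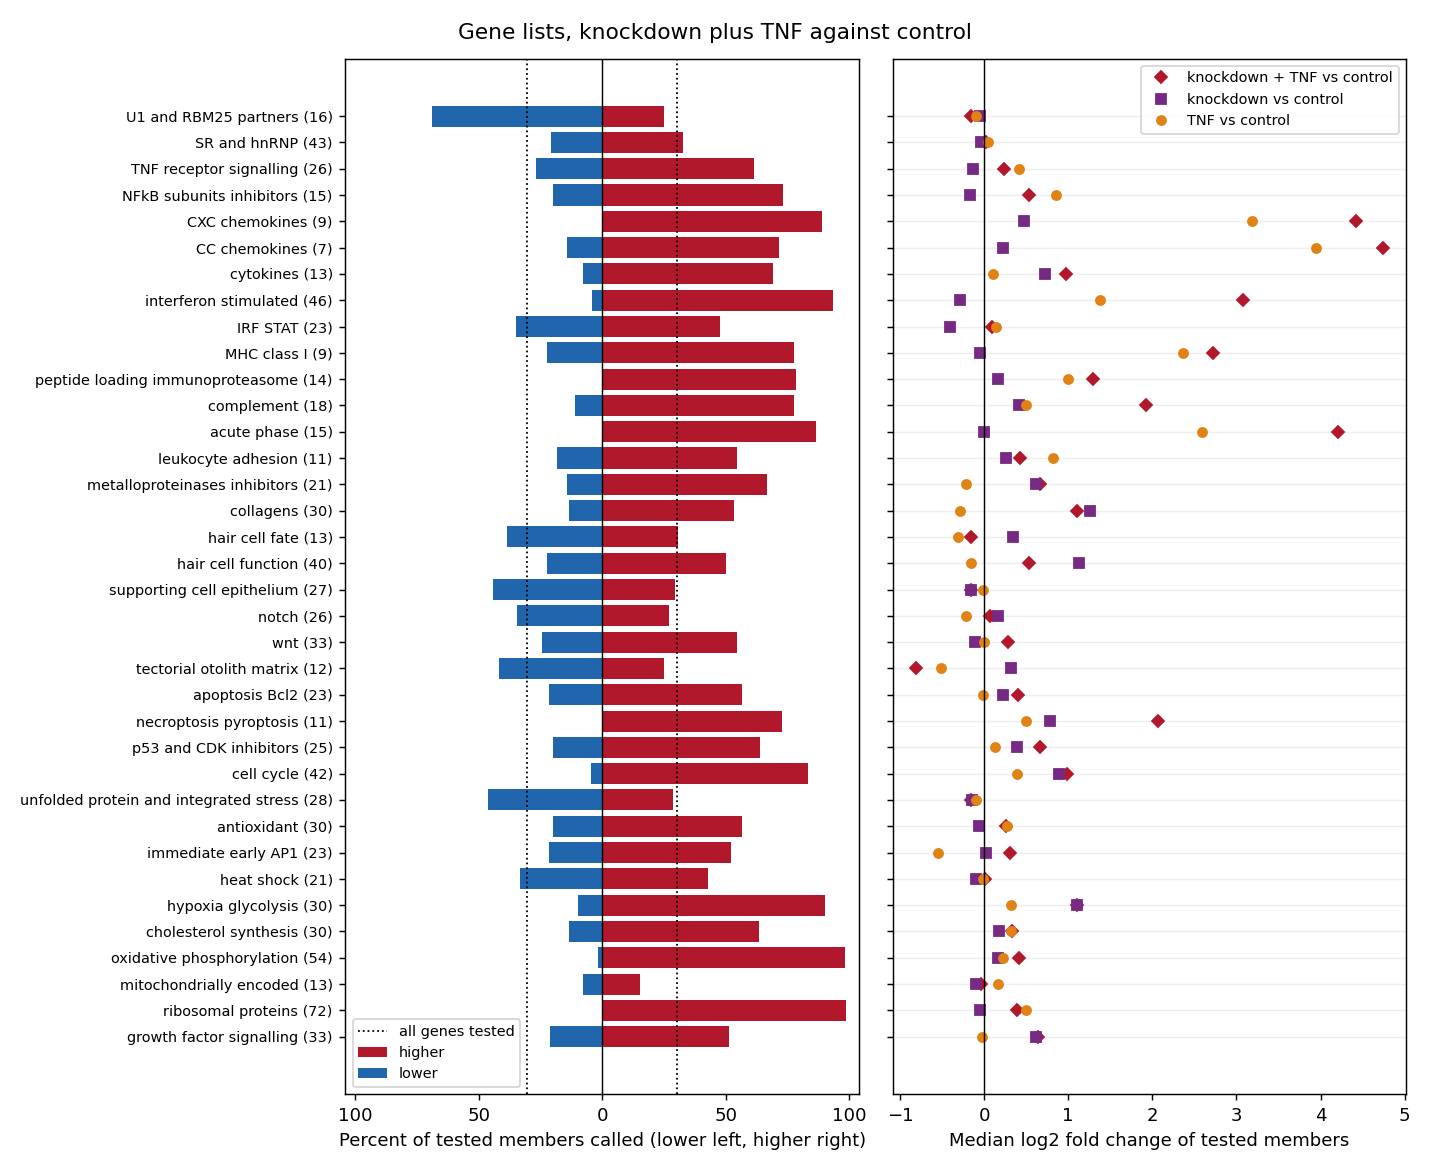
Left, percent of each list's members that passed the filter on low counts (number in brackets) called higher (right of 0) or lower (left of 0) after knockdown plus TNF against control, with dotted lines at the 30.1% and 30.5% of all genes. Right, median log2 fold change of each list for knockdown plus TNF, knockdown and TNF, each against the same control libraries, with interferon-stimulated genes at 3.08, -0.28 and 1.38. Both panels include members below the filter level in controls.

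Markers of the remaining cell types were low or moved both ways. Of 11 neuronal markers tested 3 were higher and 3 lower, or 1 and 3 of the 8 at the filter level in all controls, and the list summed to 166 to 190 CPM after knockdown plus TNF and 272 to 280 CPM in controls. Isl1, which neurons and the sensory epithelium share, fell by 1.37. Of 13 Schwann cell and glial markers 5 were higher and 5 lower, or 3 and 5 of the 9 at the filter level in all controls, with summed levels of 952 to 1040 CPM after knockdown plus TNF and 1140 to 1150 CPM in controls. Of 8 melanocyte and stria markers 2 were higher and 2 lower, with sums of 365 to 376 CPM after knockdown plus TNF and 504 to 529 CPM in controls, and Kcnj10, a potassium channel of the stria and of supporting cells, fell by 1.02.

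Lymphocyte markers summed to 3.37 to 4.08 CPM after knockdown plus TNF and 2.77 to 3.47 CPM in controls, with 2 of 15 tested, Lck higher and Cd3e lower, and Lck lost its call without control replicate 1. The granzyme gene Gzma, below the filter, had 2, 2 and 18 counts after knockdown plus TNF and none in controls. Muscle markers summed to 1.05 to 1.77 CPM after knockdown plus TNF and 0.412 to 0.866 CPM in controls, with 2 of 14 tested and both higher, each below the filter level in controls, and 1 higher without knockdown plus TNF replicate 1 or control replicate 1 or 3.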

How the data were processed

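RNA was sequenced in bulk from 12 organoid libraries in 4 groups of 3. The deposited count table holds whole, unnormalized read counts for 25190 genes, and the authors also deposited FPKM values, scaled to gene length and depth. Trimming with Trimmomatic, the aligner HISAT2, the counter HTSeq and DESeq2 are listed per the submitters' processing notes, with the mm10 build. Per the labels, the kit does not mark strand, so overlapping genes share reads: 64 of the 189 named genes share an exon with another GENCODE gene, Cxcl10, Cd74, Hpca, Penk, Capn3, Slco2b1 and Rbm25 among them. Library totals were 33802411 to 37048422 counts.

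Counts were fitted with edgeR 4.0.16 in R 4.3.3 (TMM, filterByExpr, 1 coefficient per group over all 12 libraries, robust quasi-likelihood F-test, Benjamini-Hochberg over 15888 genes, prior count 0.125). SE is the absolute log2 fold change over the square root of F. Tested on simulated counts, the comparison recovered 77.8% of 81 genes changed 1.5-fold, 87.9% of 58 changed 2-fold and 98.4% of 61 changed 4-fold. False calls were 4.4%. With so few of 15633 genes changed, the simulation does not test the comparison where 60.7% of genes are called. Alternatives used DESeq2 1.42.0 and limma 3.58.1 on log2(FPKM + 1) and log2(FPKM + 0.1).

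Genes were named by rule: Rbm25, Tnf, the 12 largest changes each way among called, non-overlapping genes with a mean of at least 1 CPM in the higher group and no predicted name, and the 4 smallest p per list. Other list members were named after their values were seen. The members and the 44 lists were chosen with earlier results of these data known. The libraries of inner ear tissue were not used here. Some named genes are not reported here.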

Additional observations from a re-analysis of the deposited data

Results flagged for a closer look

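In 7 named genes the effect of TNF differed between organoids with and without the RBM25 knockdown, by edgeR's test of the difference of differences (log2 scale, 15888 genes adjusted together). The value was 5.69 for Ifit3 (adjusted p = 6.1e-06), 1.37 for Cxcl16 (0.0191 as adjusted p), 0.68 for H2-Q4 (adjusted p = 9.47e-05), 0.52 for Rtp4 (adjusted p = 0.0282), 0.44 for Parp9 (adjusted p = 0.0072) and 0.38 for H2-K1 (adjusted p = 0.00182). For these 6 the increase with TNF was larger in depleted organoids. Their increase there starts from the level with knockdown alone. That mean was below controls for Ifit3, Cxcl16, H2-Q4 and H2-K1 and above them for Rtp4 and Parp9. Cxcl16 averaged 0.888 FPKM with knockdown alone and 1.69 FPKM in controls. After both treatments it averaged 40.1 FPKM, against 30.3 FPKM with TNF alone. For Hpca the value was 1.62 (adjusted p = 0.0373): TNF lowered it by less in depleted organoids, where it was already low, at 1.94 ± 0.186 CPM with knockdown alone against 6.31 ± 0.45 CPM in controls (SD, n = 3 each). The genes compared were the 26 ranked and target genes and the 4 named by rule in each of the CXC chemokine, interferon-stimulated and MHC class I lists. Over all genes tested, 12.3% were called by the same test. All but Rbm25 and Tnf were chosen by their change from control to knockdown plus TNF, a comparison that shares libraries with this test.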

How the results depend on the processing

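The counts of genes higher and lower moved by over 1.5 times under 1 alternative only, a test against a minimum fold of 1.5, which called 1710 higher and 1266 lower. Under the other scaling, filter, test, library and FPKM alternatives 4702 to 5609 genes were higher and 3994 to 4811 lower. Leaving out 1 library gave 4417 to 4701 higher and 4337 to 4482 lower. The fit did not pair libraries by replicate number. Deviations of same-numbered libraries correlated at -0.054 to 0.298, and those of other-numbered libraries at -0.271 to 0.0879. Between knockdown plus TNF and control, same-numbered libraries correlated at -0.0227, 0.00972 and -0.028. The highest values, 0.298 and 0.233, were between knockdown alone and control, for replicates 1 and 3. With the replicate number as a block 4702 genes were higher and 4788 lower after knockdown plus TNF. Of the 189 named genes 188 were called and 154 kept their call in every alternative. Apart from Rbm25 and Tnf, they were chosen by size of change or smallest p in this comparison. The share called thus follows largely from that choice, beside 60.7% of all genes. No named gene reversed. Calls were lost only under the minimum-fold test, except for Ibsp, Lck, Vwf, Tek, Ttn, Des, ND1 and ATP6, and ND6, not called, was called without knockdown plus TNF replicate 3. Counts within lists, recomputed under the same alternatives after the data were seen, moved by over 1.5 times in 120 cases and stayed within it in 1112. Depth limits the fold of genes with few or no control counts, and intervals and floors cover counting error only.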
